A study of Mus musculus with 4 samples.

Results

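Genes that mark macrophages, and the receptors with which these cells take up debris, were examined in RNA of mouse ears after inhalation of diesel exhaust particles (DEPs). The set holds 10 genes, chosen by name: Cd68, Adgre1 and Csf1r as identity genes, and Mrc1, Cd163, Marco, Msr1, Cd36, Folr2 and Timd4 as scavenger, lectin and folate receptors. Through the transcript accession that a probe targets, 9 of the 10 genes could be matched to 13 of the 39429 probes of the array. Cd68, the gene of the lysosomal protein macrosialin, could not be matched, and no value is given for it. All 9 matched genes had ratios on each array and were among the 25694 genes tested.

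On each of 4 two-colour arrays Cy5, the red dye, marked the extract whose source was named for DEP, and Cy3, the green dye, marked the one named for control ears. According to the methods, 9 male BALB/c mice between 6 and 10 weeks old were used, DEPs were inhaled for 1 h on each of 5 days, and the mice were killed on day 14, when the temporal bone with the middle ear was taken. The treatment labels list DEP and none under the same channel, so the source names were followed. The number of animals behind an extract and the handling of the control mice are not given in the sources used here, so the p-values measure the spread between these 4 extract pairs. Dyes were never swapped, so dye preference and exposure cannot be told apart. The labels call the 4 arrays biological replicates.

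Macrophages arise from embryonic precursors or from blood monocytes and depend on the receptor tyrosine kinase CSF1R, which binds the growth factors CSF1 and IL-34. Adgre1 encodes an adhesion receptor, the surface antigen by which mouse macrophages are usually recognised. MARCO and MSR1 are class A scavenger receptors that bind modified lipoproteins, bacteria and inhaled particles, CD36 takes up oxidised lipoprotein and fatty acids, CD163 clears haemoglobin bound to haptoglobin, and TIMD4 binds phosphatidylserine on dying cells. The mannose receptor MRC1 and the folate receptor FOLR2 are typical of resident tissue macrophages. Several of these genes are not restricted to macrophages. Cd36 is also used by adipocytes, capillary endothelium and muscle, and Csf1r by osteoclast precursors and microglia.

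PU.1, the product of Spi1, is a transcription factor of myeloid cells that binds purine-rich sites with the core GAGGAA. The 250 bases before the RefSeq start were searched for these letters on both strands, in assembly GRCm38.p6, for the 7 genes matched to an entry (8 promoters, as Folr2 has 2). The search did not cover every chromosome, and Adgre1, Csf1r and Msr1 had no entry among the promoters searched. The letters occurred in 3 of the 8 promoters, those of Mrc1, Marco and Cd68, against 23.3% of the 32851 promoters searched. A match is a description of the letters and not a site in use. The promoters of Mrc1, which held the letters 3 times on the opposite strand, of Marco, which held them once, and of Timd4, which did not hold them, are shown with the matches in capitals (TTCCTC where the match lies on the opposite strand).
Mrc1 chr2:14229164-14229413 (+): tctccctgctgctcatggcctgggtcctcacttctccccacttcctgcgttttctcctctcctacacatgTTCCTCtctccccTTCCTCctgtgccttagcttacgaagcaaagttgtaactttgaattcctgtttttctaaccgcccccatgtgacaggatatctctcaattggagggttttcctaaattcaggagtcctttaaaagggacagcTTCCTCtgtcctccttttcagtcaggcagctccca
Marco chr1:120505025-120505274 (-): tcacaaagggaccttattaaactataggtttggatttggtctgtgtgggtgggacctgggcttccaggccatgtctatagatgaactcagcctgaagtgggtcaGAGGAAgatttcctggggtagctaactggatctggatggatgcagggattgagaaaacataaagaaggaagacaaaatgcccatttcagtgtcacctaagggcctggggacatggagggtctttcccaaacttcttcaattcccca
Timd4 chr11:46810549-46810798 (+): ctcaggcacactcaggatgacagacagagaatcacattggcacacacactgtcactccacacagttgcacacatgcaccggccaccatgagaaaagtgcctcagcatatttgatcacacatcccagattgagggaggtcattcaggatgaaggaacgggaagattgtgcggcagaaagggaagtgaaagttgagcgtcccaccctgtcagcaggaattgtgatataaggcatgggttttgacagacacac

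Most macrophage genes had mean ratios slightly above 0 in the channel labelled DEP, and none passed the test across all genes. Ratios are log2 values of the DEP over the control channel of an array, from the signals that the image software had corrected for background and dye. The direction follows the source names of the samples and is opposite to the one that the study's text gives for Esr1, Sos1 and Slc1a2. The study also reports lower Esr1 and Sos1 by quantitative PCR of middle ear tissue, normalized to GAPDH. Here Esr1 had a mean log2 ratio of 0.46 ± 0.23 (SD over 4 arrays) and Sos1 of 1.06 ± 0.59, both above 0 on 4 of 4 arrays, although Sos1 was well above background under the control label on 1 array only. Slc1a2 had -1.61 ± 0.98 and was below 0 on 4 of 4. If the labels were exchanged, every direction given below would turn over, with 8 of the 9 genes lower under DEP and the shares over all genes turned likewise. The mean ratio was above 0 for 8 of the 9 genes, against 54.2% of all genes tested, and the exception was Msr1. The median of the 9 mean log2 ratios was 0.44, against 0.03 over all genes. After background correction with normexp and dye balance by loess it was 0.16, against -0.0002 over all genes. With normexp and median centring it was 0.48, against 0.11. An adjusted p under 0.05 was reached by 0 of the 9 genes and by 0% of all genes in limma's moderated test with Benjamini-Hochberg adjustment over all probes. Without adjustment, 4 of the 9 genes had a p under 0.05 and were higher in the channel labelled DEP (10% of all genes), and 1 was lower (8.66%). Of these 5 genes 2 kept such a p when any 1 of the 4 arrays was left out, and without array 1 Timd4 and Cd163 gained one. Marco was among the 2 each time, joined by Msr1 without array 1 or 3, by Adgre1 without array 2 and by Cd36 without array 4. With normexp and loess 2 of the 5, Adgre1 and Cd36, kept such a p. With normexp and median centring 4 kept it and Csf1r gained one, and Marco, whose control channel was dim, lost it under both settings. Such a p was found for 4800 of the 25694 genes tested, for 4146 with normexp and loess and for 9535 with normexp and median centring. The ratio was above 0 on all 4 arrays for 4 genes (16.2% of all genes). No gene of the set was past 2-fold, a limit passed by 2.37% of all genes in the higher and 4.37% in the lower direction. Over all genes these limits were passed by 610 higher and 1124 lower genes, but by 79 and 370 with normexp and loess, and by 385 and 220 with normexp and median centring.

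Adgre1, Csf1r, Mrc1, Cd36, Folr2 and Timd4 were measured fully, that is, their brightest probe was called well above background by the software in both dyes on each array. All 6 had a mean ratio above 0, against 54.4% of the 18347 genes measured in this way, and their median log2 ratio was 0.42 against 0.03. This median was 0.27 with normexp and loess and 0.58 with normexp and median centring, where that of all fully measured genes was 0.26. For 3 of the 6 the ratio was above 0 on every array (15.4% of those genes), and the same 3, Adgre1, Cd36 and Folr2, had an unadjusted p under 0.05 (6.56%). Of these 3, 0 kept it without array 1 or without array 3, 1 (Adgre1) without array 2 and 1 (Cd36) without array 4. None of the 6 was lower with such a p (6.07%). Signals in the dim probes of Marco, Msr1 and Cd163 were partly at background and are described apart. In extracts of whole tissue, fewer cells of a type and less RNA per cell cannot be told apart.

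**Figure D1:**
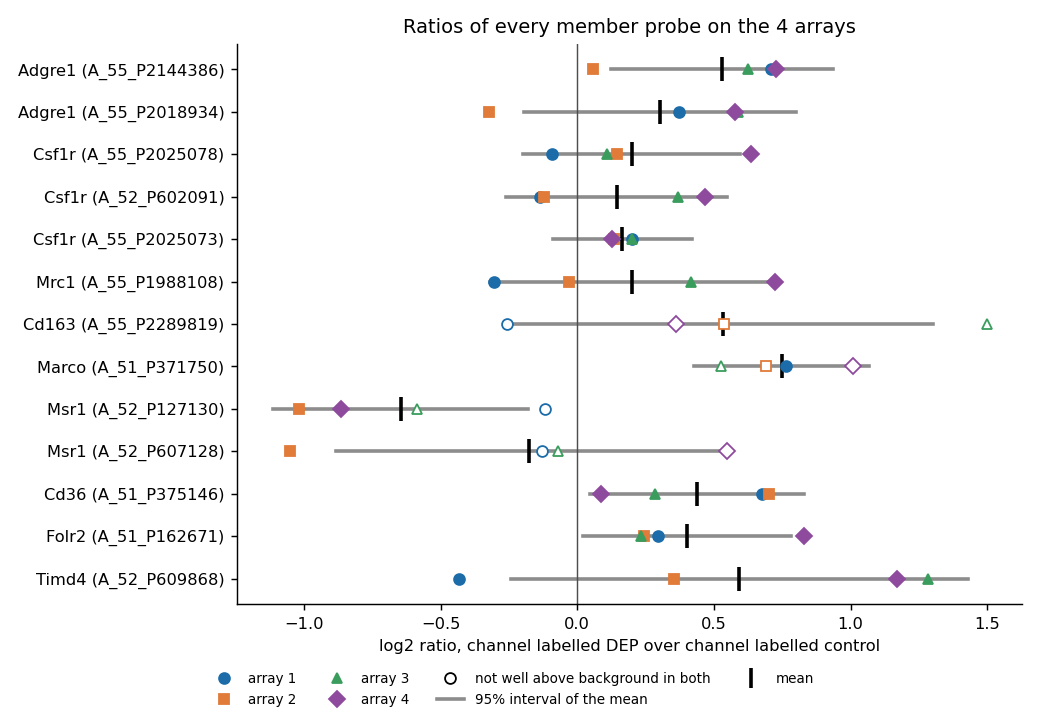
Log2 ratios (horizontal axis) of the 13 probes of 9 macrophage and scavenger receptor genes, DEP over control. Symbols are the 4 arrays, open where a channel was not well above background, black ticks are the means and grey bars the 95% intervals from limma. The fully measured probes have means between 0.14 and 0.59, and both Msr1 probes have means below 0.

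Among the identity genes, Adgre1 had the higher mean ratio, above 0 on each array. The processed signal of its brighter probe (A_55_P2144386) was 1427, 872, 831 and 939 under the DEP label on arrays 1 to 4, and 872, 838, 539 and 568 under the control label. The DEP signal was the higher one on each array, by little on array 2, although the 2 sets of signals overlapped across arrays. Its log2 ratios were 0.71, 0.06, 0.62 and 0.73, with a mean of 0.53 ± 0.32 (SD over 4 arrays, standard error, SE, 0.16) and a limma adjusted p = 0.205. This is a 1.44-fold higher mean, with a 95% interval from 1.09 to 1.91. The dimmer probe (A_55_P2018934) gave 0.30 ± 0.43, with -0.32 on array 2 and ratios from 0.37 to 0.59 on the others. On all 4 arrays the brighter probe had the larger ratio, by 0.23 ± 0.16 on the log2 scale.

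Csf1r, the growth factor receptor, had a mean ratio smaller than the SD of its arrays. Its brightest probe (A_55_P2025078) had signals of 14545, 12901, 10497 and 14377 under the DEP label and 15509, 11663, 9734 and 9253 under the control label. The 2 groups overlapped, and array 4 showed the widest gap. The log2 ratios were -0.09, 0.15, 0.11 and 0.64, with a mean of 0.20 ± 0.31 (SD over 4 arrays, SE 0.15, limma adjusted p = 0.516). The mean was 0.05 without array 4, 0.11 with normexp and loess and 0.66 with normexp and median centring. The fold was 1.15, and its 95% interval, from 0.872 to 1.51, spans both directions. The 2 other probes gave similar means, 0.14 ± 0.32 (A_52_P602091) and 0.17 ± 0.04 (A_55_P2025073). The last of these had ratios between 0.13 and 0.20, above 0 on every array, while the former lay below 0 on arrays 1 and 2. The means of A_52_P602091 and A_55_P2025073 were 0.13 and 0.07 with normexp and loess, and 0.38 and 0.25 with normexp and median centring. Without array 4 they were 0.04 and 0.18.

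Mrc1 and Timd4 varied more under the control label than under the DEP label. Mrc1 (A_55_P1988108) had signals of 1852, 1856, 1859 and 2210 under the DEP label and 2286, 1894, 1395 and 1339 under the control label. Its log2 ratios were -0.30, -0.03, 0.41 and 0.72, with a mean of 0.20 ± 0.46 (SD over 4 arrays, SE 0.20, limma adjusted p = 0.609). Arrays 1 and 2 thus lay below 0 and arrays 3 and 4 above it, and the mean was 0.03 without array 4, 0.37 without array 1, 0.13 with normexp and loess and 0.48 with normexp and median centring. The 95% interval of the fold, 0.801 to 1.65, spans change in either direction. Timd4 (A_52_P609868) had signals of 129, 178, 143 and 166 under the DEP label and of 175, 139, 58.7 and 73.5 under the control label. Its mean was 0.59 ± 0.80 (SE 0.33, adjusted p = 0.379), from ratios of -0.43, 0.35, 1.28 and 1.17. Its SD exceeded its mean, and the 95% interval of the fold ran from 0.844 to 2.70. The mean was 0.94 without array 1 and 0.36 without array 3, and it was 0.29 with normexp and loess and 0.34 with normexp and median centring.

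The spread of the signals between arrays was set beside that of other genes, with the reservation that the software corrected each array on its own. For Timd4 the SD of the log2 signal over the 4 arrays was 0.21 with the DEP label and 0.74 with the control label. For Mrc1 these values were 0.13 and 0.37. Over the 18347 fully measured genes the medians were 0.33 and 0.37, and the control channel had the wider spread in 55.5% of them. Folr2 (0.48 and 0.69) and Csf1r (0.22 and 0.34) were also wider in the control channel. Adgre1 had 0.36 in both, and Cd36 ran the other way, with 0.55 and 0.36.

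**Figure D2:**
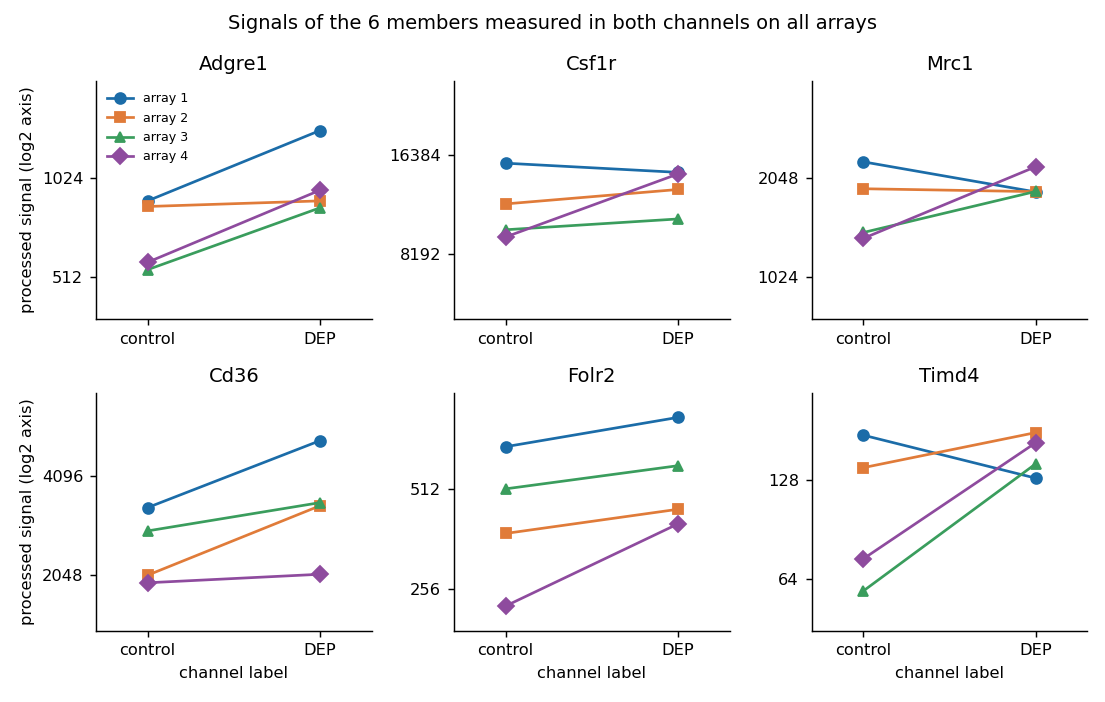
Processed signals (vertical axis, log2 scale with the same span in each panel) of the 6 fully measured genes, with a line for each of the 4 arrays joining the control channel to the DEP channel. The Timd4 and Mrc1 signals lie close together under the DEP label and apart under the control label, and the lines of Adgre1, Cd36 and Folr2 all slope upwards.

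Cd36 and Folr2 were higher under the DEP label on each array. Cd36 (A_51_P375146), the fatty acid and oxidised lipoprotein receptor, had signals of 5251, 3330, 3404 and 2062 under the DEP label and 3288, 2049, 2793 and 1943 under the control label. Its log2 ratios were 0.68, 0.70, 0.29 and 0.09, with a mean of 0.44 ± 0.30 (SD over 4 arrays, SE 0.15, limma adjusted p = 0.242). Arrays 1 and 2 had the larger ratios, the reverse of Mrc1 and Timd4. The fold was 1.35 with a 95% interval from 1.03 to 1.78. Folr2 (A_51_P162671) had signals of 848, 446, 605 and 402 under the DEP label against 691, 376, 514 and 227 under the control label. Its ratios were 0.30, 0.24, 0.23 and 0.83, with a mean of 0.40 ± 0.29 (SE 0.15, adjusted p = 0.257), and array 4 stood apart from the other 3. The fold was 1.32 with an interval from 1.01 to 1.72. The mean log2 ratio was 0.26 without array 4, 0.25 with normexp and loess, where the unadjusted p no longer lay under 0.05, and 0.50 with normexp and median centring.

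Marco, Msr1 and Cd163 were dim. Marco (A_51_P371750) was well above background on 4 arrays under the DEP label and on 1 under the control label. Its signals were 46.4, 32.1, 27.3 and 33.4 against 27.3, 19.9, 19.0 and 16.6, and its log2 ratios were 0.77, 0.69, 0.53 and 1.01. The ratio was above 0 on each array, but its size rests on control signals that were mostly at background. The mean of the 4 ratios was 0.75 ± 0.20 (SD over 4 arrays, limma adjusted p = 0.112). It was 0.16 when the background was corrected by normexp, a model of signal plus noise, and the dyes were balanced by loess, a curve fitted along intensity, and 0.03 with normexp and median centring.

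Msr1, whose product is the macrophage scavenger receptor SR-A, was the only gene of the 9 with a mean ratio below 0. Its brighter probe (A_52_P127130) was well above background on 3 arrays in each channel, with signals of 33.00, 29.46, 22.03 and 27.50 under the DEP label and 35.80, 59.73, 33.06 and 50.02 under the control label. The ratio was below 0 on each array (10.9% of all genes tested), at -0.12, -1.02, -0.59 and -0.86. The mean was -0.65 ± 0.40 (SD over 4 arrays, SE 0.18, limma adjusted p = 0.194), and -0.19 with normexp and loess. The second probe (A_52_P607128) targets the same transcript and gave -0.13, -1.05, -0.07 and 0.55, with a mean of -0.18 ± 0.66. The probes thus lay close on arrays 1 and 2 and differed by -1.41 on array 4 (first minus second), where the second probe was not well above background under the control label.

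Cd163 (A_55_P2289819) was at the limit of detection. It was well above background on 2 arrays under the DEP label and on 1 under the control label, never in both channels of the same array. Its ratios ranged from -0.26 to 1.5, with a mean of 0.53 ± 0.73 (SD over 4 arrays, SE 0.30, limma adjusted p = 0.384). The mean was 0.21 without array 3, 0.10 with normexp and loess and -0.069 with normexp and median centring.

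Calls on the brighter genes depended on how the dyes were balanced. With normexp correction and each array centred on its median, 3 of the 9 genes had an adjusted p under 0.05, all higher under the DEP label: Cd36 with a mean log2 ratio of 0.78 (adjusted p = 0.0339), Adgre1 with 0.74 (adjusted p = 0.0443) and Csf1r with 0.66 (adjusted p = 0.0477). Under this setting 2988 of the 25694 genes tested were called (2784 higher, 204 lower). The share of higher genes among those with an unadjusted p under 0.05 was 76.1% in place of 53.6% (45.7% with normexp and loess). The median over the fully measured genes moved from 0.03 to 0.26. With normexp and loess 0 of the 9 genes were called, and the same 3 genes had means of 0.39, 0.47 and 0.11. The 6 fully measured genes kept a mean above 0 under both settings and with each array left out.

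**Figure D3:**
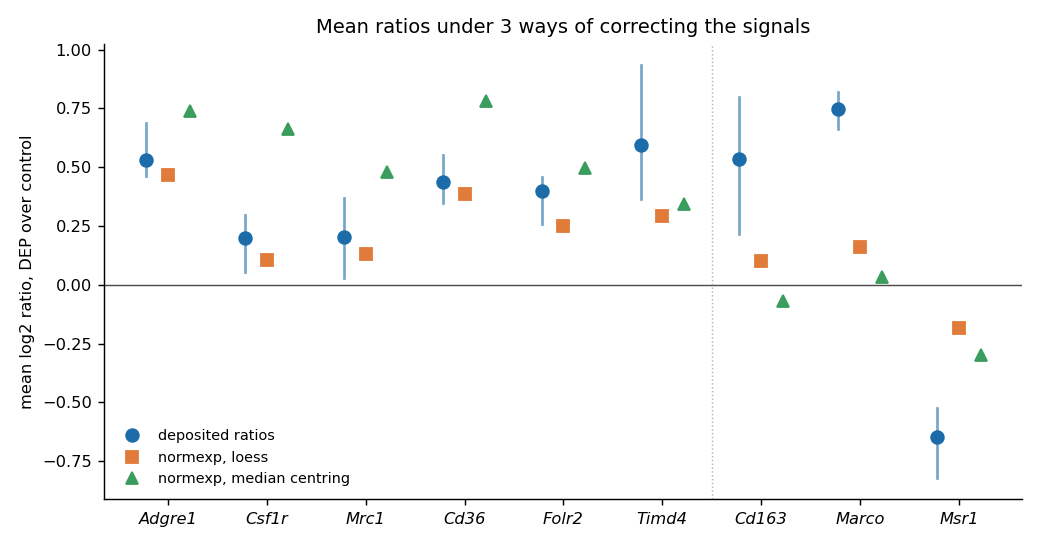
Mean log2 ratios (vertical axis) of 9 genes from the deposited ratios (blue, with a bar for the range of means when 1 array is left out) and after normexp correction with loess (orange) or median centring (green). Genes right of the dotted line were not fully measured. Marco lies at 0.75, 0.16 and 0.03 and Msr1 below 0 in all 3.

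Further macrophage genes were taken from lists of genes that are not in the set. Of 28 other genes of macrophages and monocytes, all 28 were fully measured, so macrophage transcripts were present in both extracts. Their median log2 ratio was 0.18, with 20 means above and 8 below 0. All fully measured genes had a median of 0.03, with 54.4% of means above 0. Without adjustment 3 of the 28 had a p under 0.05, no larger a share than the 12.6% of all fully measured genes, and after it 0 did. Lyve1, a hyaluronan receptor of lymphatic vessels and of some resident macrophages, had a mean of 0.70 ± 0.36 (SD over 4 arrays, SE 0.17, limma adjusted p = 0.166) and was above 0 on each array. Lyz2, the lysozyme of myeloid cells, had -0.66 ± 0.48 (SE 0.21, adjusted p = 0.22) and was below 0 on each array, barely so on array 2. The third, the lectin gene Clec10a, named after its values were seen, had 0.61 ± 0.24. Macrophage genes outside the set thus lay on both sides of 0.

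The ligands of CSF1R had mean log2 ratios near 0, at 0.03 ± 0.26 for Csf1 and 0.08 ± 0.36 for Il34. Together with macrophage transcription factors they form a list of 14 genes with a median of 0.05, of which 0 had an unadjusted p under 0.05. Within it Cebpb, a factor of myeloid and fat cells, had ratios of 2.42, 0.91, 0.39 and -1.12, and Pparg, the lipid sensor that controls Cd36 among other genes, had 1.99, 0.79, 0.33 and -0.64. In both, array 1 was the highest and array 4 the lowest. Cd36 also had its lowest ratio on array 4, over a narrower range, but its highest on array 2. Krt5 of the epithelial list, named after its values were seen, ran in the array order of both factors, at 2.17, 0.35, 0.08 and -1.24. A link between any of these genes was not tested.

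Of 16 other scavenger receptor genes 14 were tested and 12 fully measured, with a median log2 ratio of 0.28 over the 14 and 0.20 over the 12. An unadjusted p under 0.05 was found for 2 of the 14, against 18.7% of all genes tested, both higher, neither fully measured and both named after their values were seen. Olr1 (0.72 ± 0.54), a receptor of oxidised lipoprotein, was well above background on 3 arrays under the control label, and Ager (0.64 ± 0.36) on 0 arrays in either channel. The 2 widest means among the fully measured ones belonged to Cd5l (0.68 ± 1.11), a secreted protein of resident macrophages, and Cxcl16 (0.55 ± 0.55), a chemokine that also binds oxidised lipoprotein. The 14 phosphatidylserine receptors and bridging proteins, which share the ligand of TIMD4 or work beside it, had a median of 0.05, and the 12 fully measured ones of 0.0056. The unadjusted p was under 0.05 for 4 of the 14, with Havcr1 and Havcr2 higher and Adgrb1 and Tyro3 lower, and after adjustment for 0. The 2 higher genes were not fully measured, as Havcr1 was well above background on 2 arrays under the DEP label and 1 under the control label, and Havcr2 on 4 and 2. Adgrb1 had -1.29 ± 1.12 and Tyro3 had -0.50 ± 0.17. The Adgrb1 ratios, -2.31, -2.10, -0.81 and 0.07, ran in the array order of the neuron gene medians given below, and a link was not tested.

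Marker genes of other cell types also had ratios away from 0 on these arrays. Neuron genes had a median log2 ratio of -0.96, below 0 for 10 of 10 genes, with medians of -2.27, -1.66, -0.49 and 0.25 on arrays 1 to 4. Skeletal muscle genes had medians of -0.72, -0.51, 0.81 and 0.82, and genes of neutrophils and their precursors had -0.90, 0.01, 0.63 and 0.19. The 6 fully measured genes of the set had 0.10, 0.19, 0.35 and 0.73. Mrc1 and Timd4 were lowest on array 1 and higher on arrays 3 and 4, as were the medians of these 3 lists and of the 28 other macrophage and monocyte genes (-0.27, 0.03, 0.33 and 0.46). The widest means were those of Syt1 (-2.69 ± 1.62) and Gad1 (-1.76 ± 2.31) among neuron genes, Acta1 (0.33 ± 0.98) and Mylpf (0.27 ± 0.68) among muscle genes, and Ltf (-0.65 ± 0.61) and S100a9 (0.34 ± 1.13) among neutrophil genes. The summed signal of the 10 neuron genes ranged from 23978 to 32114 under the DEP label and from 24335 to 93107 under the control label. That of the 8 muscle genes ranged from 290552 to 540740 and from 234060 to 848221, and that of the 11 neutrophil genes tested from 334373 to 503588 and from 269963 to 757225. Of these genes 9 of 10, 8 of 8 and 11 of 11 were fully measured, and their part in the macrophage ratios was not tested.

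Lists of other cells that use single genes of the set were examined in the same way. Microglia genes, which bear on Csf1r and Adgre1, had a median of -0.03 over 10 genes, with 4 means above and 6 below 0. The widest, Fcrls (0.47 ± 0.54) and P2ry13 (0.38 ± 0.51), were among the 4. Osteoclast genes had 0.21 over 10, with 8 means above and 2 below 0. Mmp9 (0.44 ± 0.43) and Atp6v0d2 (0.36 ± 0.51) were widest among the fully measured. Calcr, named after its value was seen, had 1.43 ± 1.28 (limma adjusted p = 0.247). It was well above background on 2 arrays under the control label. Adipocyte genes had 0.13 over 8, with array medians of -0.06, 0.46, -0.24 and 0.77, and with Retn (0.66 ± 0.49) and Cidec (0.59 ± 0.42) above 0 on each array. Endothelial genes had -0.08 over 8, with 3 means above and 5 below 0. Cdh5, Emcn, Tek and Pecam1 had means between -0.05 and 0.04, and the 2 widest means were both below 0. Cldn5, a tight junction protein of endothelium, was lower on each array at -0.90 ± 0.12 (SD over 4 arrays, SE 0.11, limma adjusted p = 0.104). Kdr, a VEGF receptor, was also below 0 on each array at -0.44 ± 0.34. On arrays 1 to 4 the microglia medians were -0.20, 0.06, -0.18 and 0.38, in the same array order as Csf1r, and the osteoclast medians were 0.04, 0.18, -0.23 and 0.67, also highest on array 4. The endothelial medians were -0.06, 0.12, -0.34 and -0.03. The summed signals of the 8 adipocyte genes ranged from 93613 to 144574 under the DEP label and from 68768 to 188825 under the control label. The dendritic cell list had a median of 0.11 (Zbtb46 0.60 ± 0.32, Flt3 -0.49 ± 0.52), the B and T cell list 0.12 (Ms4a1 0.51 ± 0.64, Cd79a 0.29 ± 0.37) and the epithelial list 0.09. In the latter 4 means lay above 0, up to 0.47 ± 0.86 for Epcam (named after its value was seen), and 4 below, of which Sox2 (-0.62 ± 0.50) and Krt18 (-0.48 ± 0.57) were the widest. The epithelial array medians, -0.15, 0.31, -0.31 and -0.42, ran in the array order of Cd36. The part of these lists in the ratios of the set was not tested either.

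**Figure D4:**
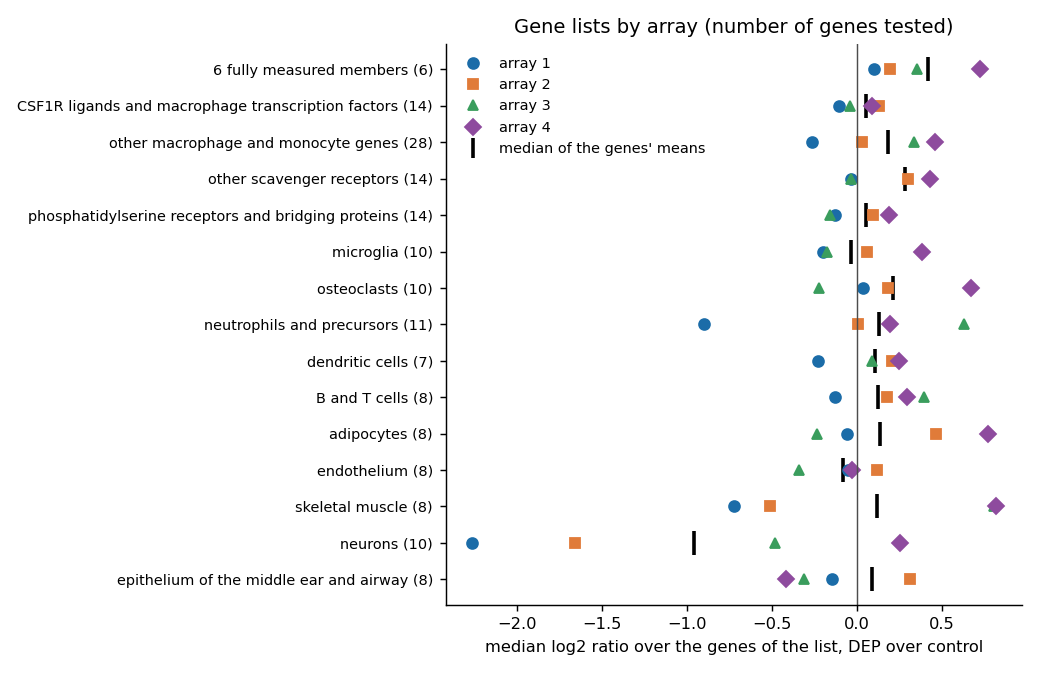
Median log2 ratio of each gene list on the 4 arrays (symbols) and the median of the genes' mean ratios (black tick), with the number of genes tested in parentheses. The neuron list reaches -2.27 on array 1, and the 6 fully measured genes of the set stay between 0.10 and 0.73.

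The genes with ratios most like those of each fully measured gene were sought among 14286 named, fully measured genes, by the root-mean-square difference over the 4 log2 ratios. With so few arrays many genes lie close to any pattern, and likeness is a description only. The nearest 3 were Alg13, Slc37a2 and Ftdc2 for Adgre1 (differences of 0.10, 0.11 and 0.14), and Ccdc80, Tbc1d24 and Olfml2b for Csf1r (each 0.05). For Mrc1 they were Cap2, Rab31 and Vbp1 (each 0.08), for Cd36 Tstd2, Fbxl13 and Thap6 (0.03, 0.05 and 0.05), and for Folr2 Xkr8, Cubn and Itgbl1 (0.09, 0.09 and 0.10). For Timd4 they were Klk1b4, Vsig4 and Dkk1 (0.15, 0.17 and 0.17). Vsig4, a complement receptor of resident macrophages, was the only one of these 18 genes that was also in a macrophage list, with ratios of -0.31, 0.17, 1.04 and 1.25.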

How the data were processed

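Extracts of dissected ears were compared on 4 two-colour 4x44K arrays of 1 slide. Images were read by the authors in Feature Extraction 10.10.1.1. The deposited values are background-subtracted, dye-normalized intensities and the log10 ratio of Cy5 over Cy3 of each array, and a deposited value table holds log10 ratios of the same arrays. Arrays were not normalized to each other. Here ratios were put on the log2 scale. Control spots, spots flagged as outliers (164 to 274 per array) and spots without a ratio (6179 to 8558) were left out, spots of a probe were averaged, and probes with ratios on at least 3 arrays (31577) were kept. RefSeq accessions of assembly GRCm38.p6 named 27655 probes, and a gene was its brightest probe. Probes without a symbol were grouped by the name of their target, and these are counted among the genes tested. An intercept was fitted with limma 3.58.1 (R 4.3.3) and tested two-sided. An exact sign-flip test of 4 ratios cannot go below p = 0.125. On simulated ratios of 31577 probes for this comparison, 29 of 100 changes of 1 and 56 of 100 changes of 2 on the log2 scale were recovered, with 2 false calls. Between 65.4% and 69.0% of probes were well above background in Cy5 and between 59.2% and 68.0% in Cy3, which with the number of arrays limits the precision.

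Lists of 158 genes in 14 groups described other cells and pathways (4 genes are in 2 lists). From each list the 2 fully measured genes with the widest mean ratio in either direction were named, with others only where a count or comparison turned on them. The members and lists were chosen with earlier results of these data known. Alternatives were normexp with an offset of 50 (on median signals), followed by loess or median centring, the deposited table, 2 filters on dim probes, keeping flagged spots, an intensity trend, the mean of a gene's probes and leaving out each array. There were 0 columns without a sample. Figures were made with Python 3.11.15 and matplotlib 3.10.9.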

Additional observations from a re-analysis of the deposited data

Results flagged for a closer look

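In 2 of the 13 probes 1 array lay farther from the other 3 than Dixon's 95% limit for 4 values allows. Chance passes this limit in about 1 in 20 sets. For Folr2 the gap of array 4 (a log2 ratio of 0.83, against 0.23 to 0.30) was 0.895 of the range. For the brighter Adgre1 probe the gap of array 2 (0.06, against 0.62 to 0.73) was 0.846 of the range, and the mean was 0.69 without that array.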

How the results depend on the processing

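Over 12 alternatives the mean ratios of Adgre1, Csf1r, Mrc1, Cd36, Folr2, Timd4, Marco and Msr1 kept their sign wherever they could be computed. Cd163 turned to -0.069 with normexp and median centring, and the second Msr1 probe ranged from -0.42 to 0.11 (without replicate 2) with 1 replicate left out. With signal required in both channels Cd163, Marco and Msr1 gave no value, and with 1 channel required Cd163 and Msr1 gave none. Genes of the set with an unadjusted p under 0.05 numbered 5, but 2 with normexp and loess, 3 with both channels required, 3 with the mean of the probes, and 2 to 4 with 1 replicate left out. With an adjusted p they numbered 0, but 3 with normexp and median centring. Over all genes 0 passed after adjustment but 2988 with median centring, and 4800 before it, with 9535 under median centring, 2839 with both channels required and 2864 to 4804 with 1 replicate left out. Of the genes with an unadjusted p under 0.05, 53.6% were higher under the DEP label, against 76.1% with median centring and 45.7% with loess. The median over the 9 genes was 0.16 with normexp and loess and 0.48 with median centring, against 0.44. The cause of these shifts was not tested. The ratios are already paired within an array, and no further replicate block was fitted.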
